A study of Mus musculus with 6 samples.

Results

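The 8 troponin genes of the mouse were examined in RNA-seq of Achilles tendon: the fast skeletal genes Tnnt3, Tnni2 and Tnnc2, the slow skeletal genes Tnnt1, Tnni1 and Tnnc1, and the cardiac genes Tnnt2 and Tnni3. They were taken by name from a count table of 53726 lines left after repeated lines were removed, and all 8 were found. The study made 3 RNA-seq libraries, 1 per genotype, from mice of 4 weeks. Control mice carried floxed Dicer (Dicer f/f) and no Cre. ScxHt mice carried the ScxCre/+ knock-in with wild-type Dicer (Dicer +/+). Dicer cKO mice carried the ScxCre/+ knock-in and Dicer f/f. ScxHt and Dicer cKO therefore share the knock-in of Cre at the Scleraxis gene, and Control and ScxHt differ both in the knock-in and in the floxed alleles. Scleraxis is a transcription factor of tendon and ligament cells. The paper places excision by this Cre mainly where Scleraxis stays expressed, as in tendons and ligaments. Cre activity in muscle fibres, which normally make troponins, was not tested here. With 1 library per genotype no difference has a replicate check, so no p-value is given, and the genotype and the individual mouse cannot be told apart.

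Troponin is the calcium switch of striated muscle. Troponin C binds calcium, troponin I holds back the interaction of actin and myosin, and troponin T ties the complex to tropomyosin along the thin filament. Fast and slow skeletal fibres and the heart use different genes for these subunits, with Tnnc1 serving both slow fibres and heart. Tendon fibroblasts have no sarcomeres, and the troponins are textbook markers of the type of fibre present in a muscle.

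The libraries held 16244232 counts in Control, 15769301 in ScxHt and 14959399 in Dicer cKO. Ratios were taken between counts divided by DESeq2 size factors, with exact 95% intervals that cover counting error only. A gene was called higher or lower when its mean normalized count was above 50 and its ratio was above an upper limit of about 1.7 or below 0.60, the limits the study used. The 20 genes common to all skeletal fibres took 6.09% of counts in Control, 3.15% in ScxHt and 10.1% in Dicer cKO, and the 12 tendon genes took 13.8%, 12.2% and 7.91%, with none of either list at 0. In each library most reads of the muscle list fell on Ttn, and most of the tendon list on Col1a1 and Col1a2. These sums therefore follow few genes. The tendon list had a median ratio of 1.19 in ScxHt/Control, although its sum was smaller in ScxHt. Dicer1, the targeted gene, had 1919 reads in Control, 2025 in ScxHt and 1621 in Dicer cKO, a Dicer cKO/Control ratio of 0.877 (0.821 to 0.938). These reads cover the whole gene and not only its floxed part, so they do not measure the deletion itself.

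The 8 troponins together took 0.146% of counts in Control, 0.107% in ScxHt and 0.257% in Dicer cKO. The fast genes took 0.0931%, 0.0871% and 0.190%, and the slow genes took 0.0528%, 0.0199% and 0.0672%. The fast share was thus high in Dicer cKO and close together in Control and ScxHt, while the slow share was low in ScxHt and close together in Control and Dicer cKO. In bulk tissue, fewer cells of a type and less RNA per cell cannot be told apart.

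**Figure D1:**
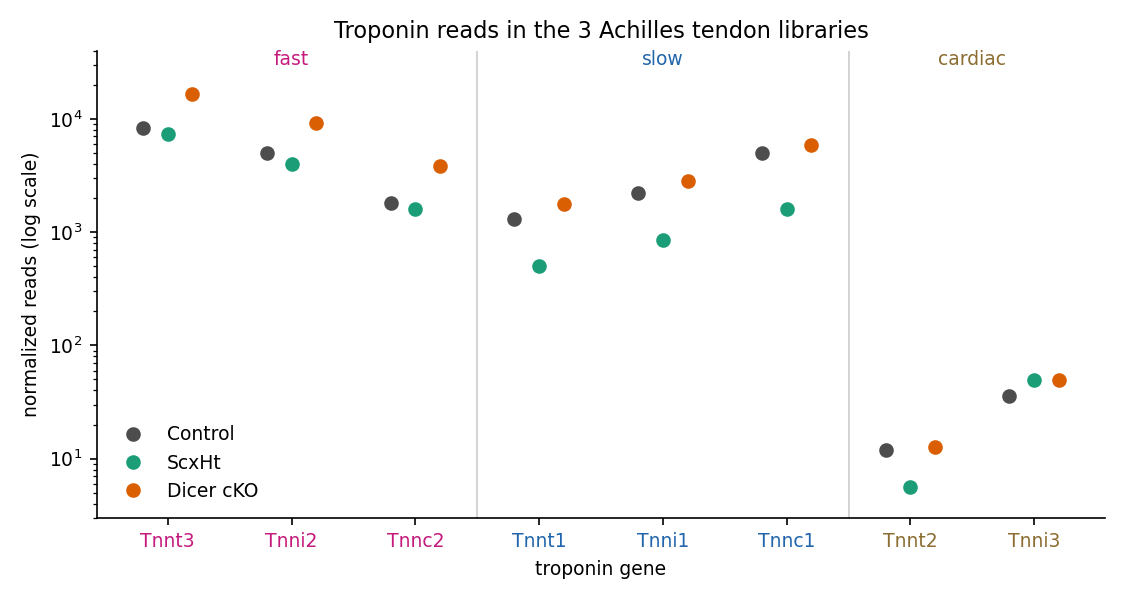
Normalized reads of the 8 troponins (log axis, counts divided by size factors over the 3 libraries), 1 point per library, with gene names coloured by type. The Dicer cKO point lies above both others for the 3 fast genes, the ScxHt point lies below both others for the 3 slow genes, and both cardiac genes have 52 reads or fewer in every library.

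Fast troponins were higher in Dicer cKO. Tnnt3, the fast troponin T (GRCm38 chromosome 7, 142498836 to 142516009, plus strand), had 8264 reads in Control, 7779 in ScxHt and 15962 in Dicer cKO. Tnni2, the fast troponin I (chromosome 7, 142441808 to 142444410, plus strand), had 5057, 4253 and 8747 reads in the same order. Tnnc2, the fast troponin C (chromosome 2, 164777161 to 164779967, minus strand), had 1807, 1704 and 3677 reads. In all 3 genes the Dicer cKO library stood far above the other two, and ScxHt was the lowest. The Dicer cKO/Control ratio was 2.01 for Tnnt3 (1.95 to 2.06), 1.80 for Tnni2 (1.73 to 1.86) and 2.11 for Tnnc2 (1.997 to 2.24), so all 3 were called higher, beside 3.87% of the 13404 genes above the minimum. The ScxHt/Control ratios were 0.902 for Tnnt3 (0.874 to 0.931), 0.806 for Tnni2 (0.774 to 0.840) and 0.904 for Tnnc2 (0.845 to 0.966), all between the limits. Of the 800 exon bases of Tnnc2, 592 are shared with Ube2c on the opposite strand, a gene listed with 46, 67 and 142 reads. The strand setting of the counting is not given in the sources used here, so reads from this shared stretch cannot be told apart and the values of Tnnc2 are uncertain.

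Slow troponins were lower in ScxHt. Tnnt1, the slow troponin T (chromosome 7, 4504570 to 4516382, minus strand), had 1322 reads in Control, 530 in ScxHt and 1705 in Dicer cKO. Tnni1, the slow troponin I (chromosome 1, 135779434 to 135810989, plus strand), had 2240, 902 and 2684 reads. Tnnc1, the troponin C of slow fibres and heart (chromosome 14, 31208312 to 31211729, plus strand), had 5019, 1701 and 5671 reads. In all 3 genes ScxHt stood far below the other two libraries, and Dicer cKO was the highest. The ScxHt/Control ratio was 0.384 for Tnnt1 (0.347 to 0.425), 0.386 for Tnni1 (0.357 to 0.417) and 0.325 for Tnnc1 (0.307 to 0.343), and all 3 were called lower, beside 4.71% of 13462 genes. The Dicer cKO/Control ratios of the slow genes were smaller than those of the fast genes, at 1.34 for Tnnt1 (1.25 to 1.44), 1.24 for Tnni1 (1.18 to 1.32) and 1.17 for Tnnc1 (1.13 to 1.22), all between the limits. No troponin was called lower in Dicer cKO against Control (4.18% of all genes were) and none higher in ScxHt against Control (3.03% of all genes were). Tnnc1 lies within the opposite-strand gene Nisch but shares no exon bases with it.

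The windows of 250 bases before the RefSeq start are shown for the 3 slow genes, which moved together between libraries, and for the cardiac gene Tnnt2, which is a neighbour of Tnni1 on the chromosome but had few reads in any library. RefSeq (GRCm38.p6) gave 8 windows for 6 of the 8 members, with 2 starts each for Tnni1 and Tnnt2, of which the upstream one is shown, and those of Tnnt3 and Tnni2 were missing from the table. Capitals mark the E-box CANNTG, the site read by MyoD-type factors, and MCAT, CATTCC on either strand, the site read by TEAD factors. Sequences run 5′ to 3′ on the strand of the gene.
Tnnt1, chr7:4515976-4516225, minus strand: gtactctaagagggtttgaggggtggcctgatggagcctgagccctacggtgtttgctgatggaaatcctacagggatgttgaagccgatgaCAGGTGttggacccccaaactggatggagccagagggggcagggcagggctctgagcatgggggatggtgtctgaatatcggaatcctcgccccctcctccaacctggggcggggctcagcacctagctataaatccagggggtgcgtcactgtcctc
Tnni1, chr1:135799171-135799420, plus strand: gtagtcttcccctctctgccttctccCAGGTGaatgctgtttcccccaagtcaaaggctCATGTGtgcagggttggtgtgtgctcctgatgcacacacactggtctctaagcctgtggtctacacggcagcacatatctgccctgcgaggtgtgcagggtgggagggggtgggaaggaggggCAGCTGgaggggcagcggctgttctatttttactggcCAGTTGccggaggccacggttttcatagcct
Tnnc1, chr14:31208062-31208311, plus strand: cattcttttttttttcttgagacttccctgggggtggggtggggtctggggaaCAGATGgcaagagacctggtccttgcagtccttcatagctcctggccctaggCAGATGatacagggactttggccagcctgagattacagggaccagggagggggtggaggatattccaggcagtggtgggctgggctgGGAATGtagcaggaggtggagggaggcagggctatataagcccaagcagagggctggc
Tnnt2, chr1:135836084-135836333, plus strand: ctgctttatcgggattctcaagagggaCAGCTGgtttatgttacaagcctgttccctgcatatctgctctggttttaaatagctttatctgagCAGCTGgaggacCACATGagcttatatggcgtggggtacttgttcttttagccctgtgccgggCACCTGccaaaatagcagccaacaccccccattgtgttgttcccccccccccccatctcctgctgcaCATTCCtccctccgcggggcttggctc
The Tnnt1 window held 1 E-box, that of Tnni1 held 4, that of Tnnc1 held 2 and that of Tnnt2 held 4. At the other start, the Tnni1 window overlaps the one shown, and its 2 E-boxes, CAGCTG and CAGTTG, are sites already counted among the 4. The other Tnnt2 window held 1 E-box and lay wholly in annotated exon bases. Neither of these windows held MCAT. The windows of Tnnc2 and Tnni3 held 2 E-boxes and 1. In the windows shown MCAT was found once in Tnnc1, on the opposite strand with its first base 58 bases before the start, and once in Tnnt2, 27 bases before it. Of 32851 promoter windows of this length in the table, 66.2% held an E-box, 12.6% held MCAT and 2.92% held the MEF2 motif, which was in none of the windows of the members. No matches overlapped. A match describes the letters in the window and not a bound site.

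Against ScxHt, all 6 skeletal troponins were higher in Dicer cKO. The Dicer cKO/ScxHt ratios of the fast genes were 2.26 for Tnnt3 (2.20 to 2.32), 2.27 for Tnni2 (2.18 to 2.35) and 2.38 for Tnnc2 (2.24 to 2.52). Those of the slow genes were 3.54 for Tnnt1 (3.21 to 3.91), 3.28 for Tnni1 (3.04 to 3.54) and 3.67 for Tnnc1 (3.48 to 3.88). The 6 calls stand beside 7.66% of 13455 genes called higher, and no troponin was lower, as 5.70% of genes were. The intervals of the slow genes lay above those of the fast genes. The median log2 ratio of the fast genes was 1.0 in Dicer cKO/Control, -0.15 in ScxHt/Control and 1.18 in Dicer cKO/ScxHt, and that of the slow genes was 0.32, -1.38 and 1.83. The 3 comparisons are made from the same 3 libraries, so they are not independent of each other.

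**Figure D2:**
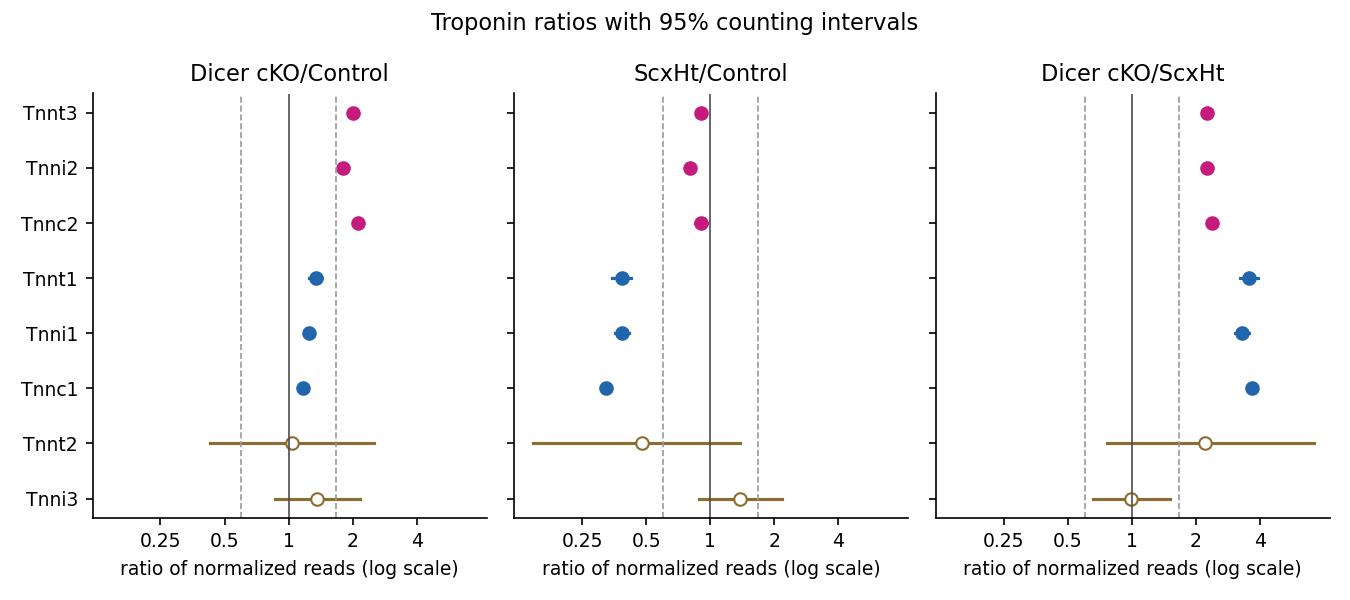
Ratios of normalized reads (log axis) of the 8 troponins in the 3 comparisons, fast genes in pink, slow in blue and cardiac in brown, with 95% counting intervals as bars and dashed lines at the lower and upper limits. Open symbols mark genes with a mean at or below 50. The fast genes lie at 1.80 to 2.11 in Dicer cKO/Control and the slow genes at 0.325 to 0.386 in ScxHt/Control.

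The cardiac genes had low counts. Tnnt2, the cardiac troponin T (chromosome 1, 135836354 to 135852260, plus strand), had 12 reads in Control, 6 in ScxHt and 12 in Dicer cKO. Tnni3, the cardiac troponin I (chromosome 7, 4518305 to 4524229, minus strand), had 36, 52 and 47 reads. Neither passed the minimum in any comparison, so 6 of the 8 members were open to a call. For Dicer cKO/Control the counting interval spanned 0.427 to 2.53 in Tnnt2 and 0.860 to 2.15 in Tnni3, so a difference of the size seen in the fast genes was not excluded for either by these counts. Of Tnni3's 2063 exon bases, 86 are shared with Dnaaf3 on the same strand. Of 12 other heart genes, Nppa, Nppb, Myl7, Nkx2-5 and Tbx20 were at 0 reads in all 3 libraries and Mybpc3 was at 0 in Control and Dicer cKO. Most reads of the list fell on Myh6, the alpha myosin heavy chain of heart, with 3337, 1181 and 3777 reads, whose sequence is very similar to that of the slow fibre myosin Myh7 (40759, 14202 and 47563 reads), so that its reads are uncertain.

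Levels of different genes were compared as deposited RPKM values, which divide reads by gene length and library depth. The length used matches all annotated exon bases of a gene, such as 3600 for Tnni1, 7752 for Tnnt2 and 1497 for Tnni2. This can exceed the length of the transcript present, so orders, sums and shares of RPKM between genes depend on it. In Control the order was Tnnt3 at 321 RPKM, Tnnc1 at 297, Tnni2 at 208, Tnnc2 at 139, Tnni1 at 38.3, Tnnt1 at 36.9, Tnni3 at 1.06 and Tnnt2 at 0.0953. In ScxHt the order was Tnnt3 at 312 RPKM, Tnni2 at 180, Tnnc2 at 135, Tnnc1 at 104, Tnni1 at 15.9, Tnnt1 at 15.3, Tnni3 at 1.60 and Tnnt2 at 0.0491. In Dicer cKO it was Tnnt3 at 674 RPKM, Tnni2 at 391, Tnnc1 at 364, Tnnc2 at 307, Tnnt1 at 51.7, Tnni1 at 49.8, Tnni3 at 1.52 and Tnnt2 at 0.103. Tnnt3 was the highest troponin in every library, and Tnnc1 was the member whose place in the order moved most. Counting intervals of Tnnt1 and Tnni1 overlapped in each library, so slow troponin T and slow troponin I could not be ranked, while Tnnc1 was far above both. Among the features with any reads, Tnnt3 ranked 79 of 26666 by RPKM in Control, 82 of 26748 in ScxHt and 51 of 26182 in Dicer cKO, and Tnnc1 ranked 85, 257 and 80.

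Within each subunit the fast gene took a larger share in ScxHt and in Dicer cKO than in Control. Tnnt3 made up 89.7% of troponin T RPKM in Control, 95.3% in ScxHt and 92.9% in Dicer cKO. Tnni2 made up 84.1%, 91.2% and 88.4% of troponin I RPKM. Tnnc2 made up 31.9%, 56.6% and 45.8% of troponin C RPKM. By RPKM the slow and cardiac form was the main troponin C in Control and Dicer cKO but not in ScxHt. In raw reads the fast share in ScxHt was 50.04% (48.4 to 51.7), so neither form led there. The values of Tnnc2 are uncertain because of the exon bases shared with Ube2c, so the main form is not settled. The order of the libraries was the same for the 3 subunits, with Control lowest, Dicer cKO between and ScxHt highest. These shares do not depend on how the libraries are scaled, but shares of RPKM depend on the gene lengths used. The ratio of fast to slow reads was higher in Dicer cKO than in Control by a factor of 1.5 for troponin T (1.39 to 1.62), 1.44 for troponin I (1.35 to 1.54) and 1.80 for troponin C (1.68 to 1.93), and in ScxHt by a factor of 2.35 (2.11 to 2.61), 2.09 (1.91 to 2.28) and 2.78 (2.55 to 3.03). Between Dicer cKO and ScxHt the factors were 0.638 for troponin T (0.576 to 0.706), 0.691 for troponin I (0.636 to 0.752) and 0.647 for troponin C (0.598 to 0.70). The higher fast share went with more fast reads in Dicer cKO and with fewer slow reads in ScxHt.

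**Figure D3:**
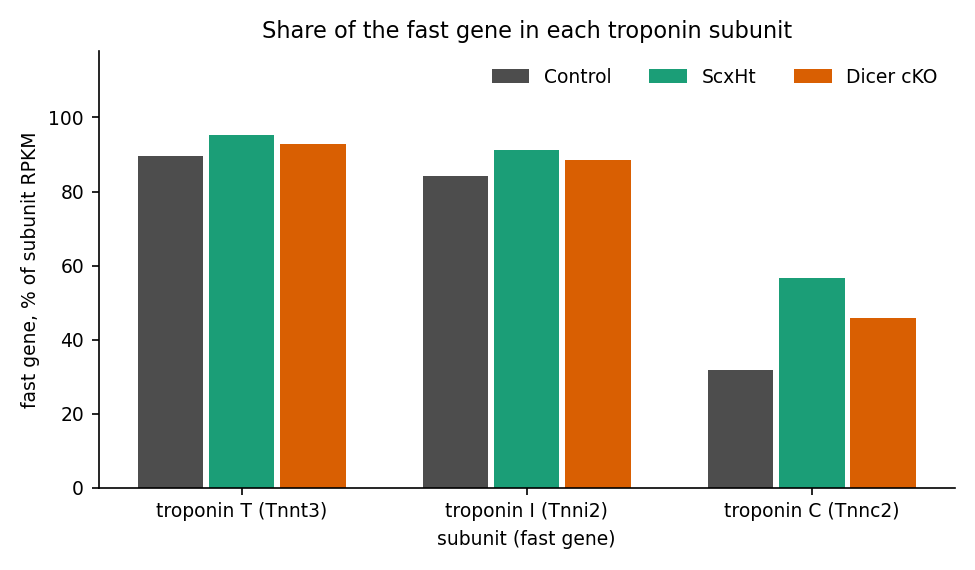
Share of the fast gene in the summed RPKM of each troponin subunit (vertical axis, percent), 1 bar per library and no error bars, since each genotype has 1 library. The bars of every subunit stand in the order Control, Dicer cKO, ScxHt from low to high, and troponin C spans 31.9% to 56.6%.

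Summed over types, troponin T reached 358 RPKM in Control, 327 in ScxHt and 726 in Dicer cKO, troponin I reached 247, 198 and 442, and troponin C reached 436, 239 and 671. Troponin C was the highest of the subunits in Control, and troponin T was the highest in ScxHt and Dicer cKO. The troponin C sums include Tnnc2, whose values are uncertain, so this order is uncertain too.

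Genes for troponin I and troponin T lie in pairs on the mouse chromosomes. Tnni2 and Tnnt3 are 54425 bases apart with the leukocyte gene Lsp1 between them, which had 2064 reads in Control, 2501 in ScxHt and 1539 in Dicer cKO, while both fast troponins stood highest in Dicer cKO. Prr33, on the opposite strand, lies partly in the same gap and overlaps Tnnt3 by 7936 bases with no shared exon bases, and had 183, 89 and 248 reads, also highest in Dicer cKO. Tnni1 and Tnnt2 are 25364 bases apart, and Tnni3 and Tnnt1 are 1922 bases apart. In these last pairs the slow gene was at 15.3 RPKM or more in every library and its cardiac neighbour at 1.60 RPKM or less, so neighbours on the chromosome did not have similar levels there.

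**Figure D4:**
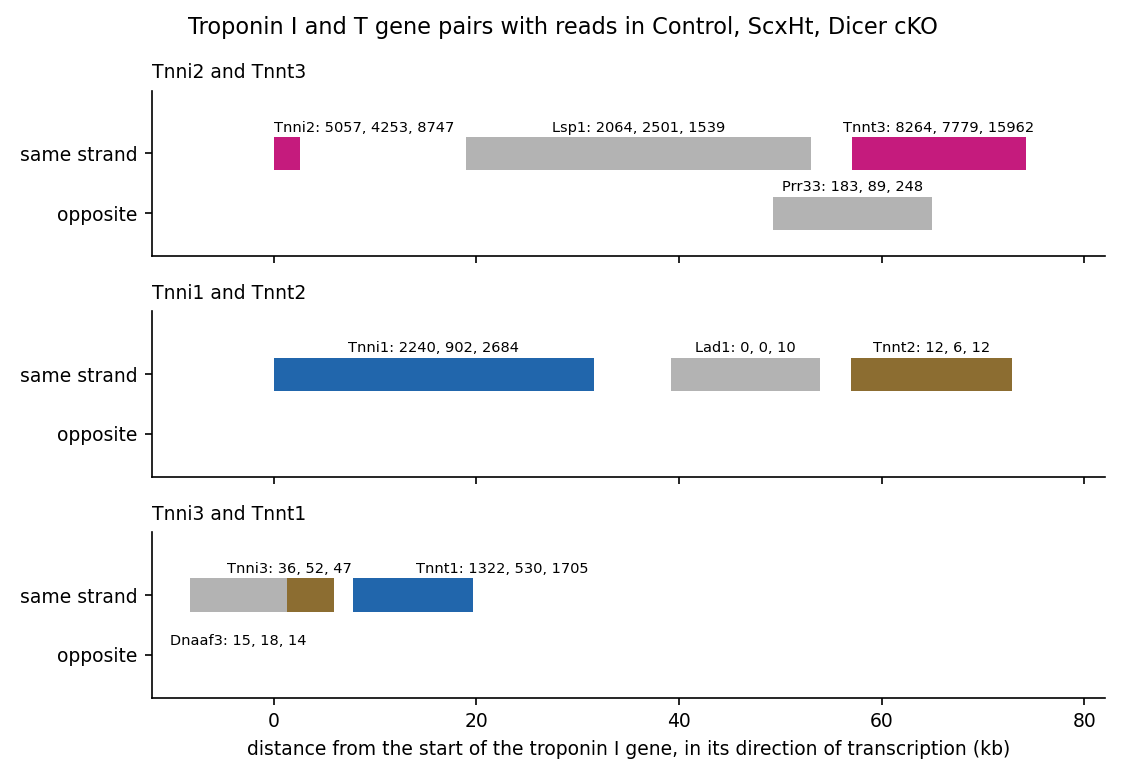
Map of the 3 troponin I and T gene pairs, drawn to scale in kilobases from the start of the troponin I gene, with reads in Control, ScxHt and Dicer cKO beside each gene. Fast genes are pink, slow genes blue, cardiac genes brown and other genes grey. Both members of the Tnni2 and Tnnt3 pair have 4253 reads or more in every library, while in the other pairs 1 member has 52 or fewer.

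The troponins were set beside other genes of the sarcomere. Of 18 other genes of the thin filament, 6 were higher and none lower in Dicer cKO/Control (median log2 ratio 0.64), and 1, Actc1, was higher and 12 were lower in ScxHt/Control (median -0.81). The ratio in Dicer cKO/Control was highest for Actc1, the actin of heart and developing muscle, at 5.49 (286 reads in Control, 1272 in ScxHt and 1512 in Dicer cKO), and lowest for Capzb, an actin-capping subunit, at 0.972. Acta1, the main skeletal actin, had ratios of 1.59 in Dicer cKO/Control and 0.573 in ScxHt/Control. Genes common to all skeletal fibres gave 5 of 20 higher in Dicer cKO/Control (Ckm, Cacna1s, Tcap, Myoz1, which is also on the fast fibre list, and Jph1, median log2 ratio of the list 0.68) and 14 of 20 lower in ScxHt/Control (median -0.93). Among them Ttn, the giant spring protein of the sarcomere, had ratios of 1.60 and 0.458, and Ckm, muscle creatine kinase, had 1.82 and 0.832. The fast troponins lay above these medians in both comparisons, and the slow troponins lay below them in both.

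Genes of the same fibre type had medians close to those of the troponins. Of 12 other fast fibre genes, 11 were higher in Dicer cKO/Control (median log2 ratio 1.0, as for the fast troponins), while in ScxHt/Control 4 were higher and 2 lower (median -0.08). Of 10 other slow fibre genes, 1, Casq2, was higher in Dicer cKO/Control at 1.70 (median log2 ratio of the list 0.25) and all 10 were lower in ScxHt/Control (median -1.35). The fast myosin heavy chains did not move together. Myh4, of the fastest fibres, had 8125 reads in Control, 39836 in ScxHt and 49811 in Dicer cKO, and its ratio was 6.37 in Dicer cKO/Control and 4.70 in ScxHt/Control. Myh2 had ratios of 1.95 and 0.419, and Myh1 had 1.32 and 0.480. The fast troponins, used by all of these fast fibre types, had ScxHt/Control ratios between that of Myh4 and those of Myh1 and Myh2. Myh7, the slow myosin, had ratios of 1.21 and 0.334, and those of the slow troponins were 1.17 to 1.34 and 0.325 to 0.386.

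Of 2627 genes outside the troponins with a mean above 1000, the 5 nearest to the median point of the fast troponins in the plane of the log2 Dicer cKO/Control and ScxHt/Control ratios were RP24-426K19.3 (distance 0.0139), Myl1, Casq1, Pgam2 and Myoz1 (0.133). Their Dicer cKO/Control ratios were 1.99, 1.97, 2.01, 1.86 and 1.98. The 5 nearest to the slow troponins were Adck3 (0.0685), Actn2, Lmod2, Myom3 and Hspb7 (0.177), with ScxHt/Control ratios of 0.402, 0.383, 0.417, 0.421 and 0.421. Myoz1 and Actn2 also stand on the list of genes common to all skeletal fibres. That list thus holds genes close to the fast and to the slow troponins, and its medians are not a neutral reference. Likeness here rests on 3 libraries and on ratios that share Control, and genes of 1 tissue in 3 libraries also share library and depth.

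**Figure D5:**
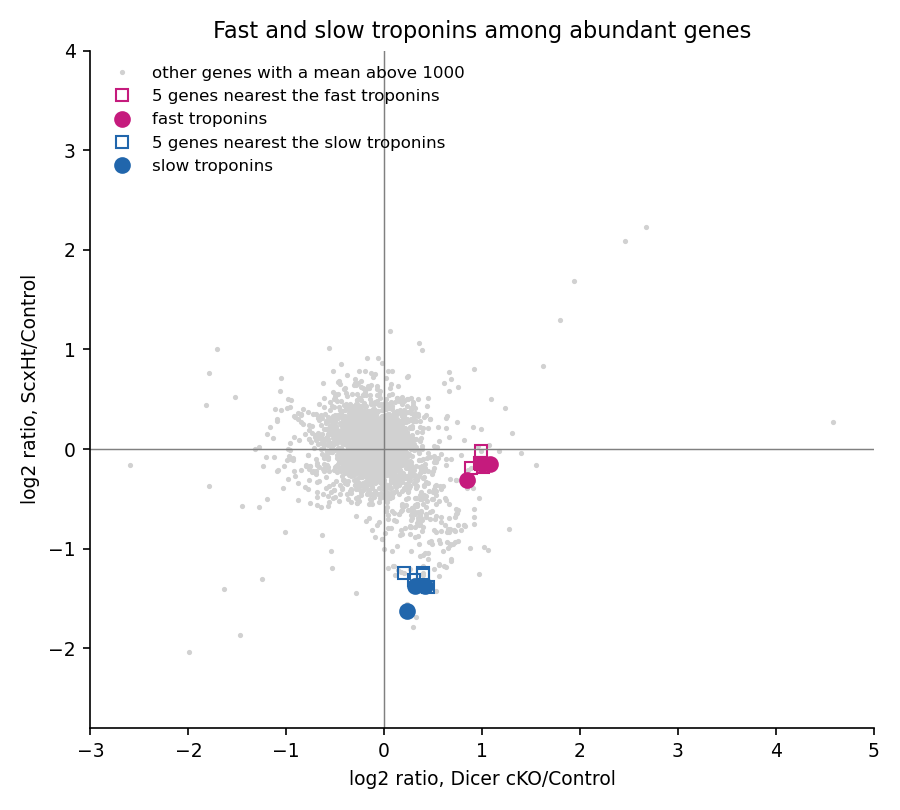
Log2 ratio in Dicer cKO/Control (horizontal) against log2 ratio in ScxHt/Control (vertical) for genes with a mean normalized count above 1000 (grey), the fast and slow troponins (filled) and the 5 genes nearest to each (open squares). Both axes share the Control library. The fast troponins lie near 1.0 and -0.15, the slow troponins near 0.32 and -1.38.

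Marker genes of other cell types in the tissue also differed between the libraries. Of 12 tendon genes, 8 were lower in Dicer cKO/Control (median log2 ratio -0.88) and none was past the limits in ScxHt/Control (median 0.25). Among the 8 was Scx, the Scleraxis gene that carries the knock-in in ScxHt and Dicer cKO. Its ratio was 0.365 in Dicer cKO/Control and 0.623 in ScxHt/Control. All 5 erythroid genes above the minimum (Hba-a1, Hba-a2, Hbb-bs, Hbb-bt and Alas2) were higher in Dicer cKO/Control (median 1.18), with a summed share of 0.0189% of counts in Control, 0.0195% in ScxHt and 0.0462% in Dicer cKO. Of 8 macrophage genes, 6 were higher in ScxHt/Control (median 0.77), with a summed share of 0.0230%, 0.0428% and 0.0181%, and neither list had a gene at 0. Of 8 adipocyte genes 1, Lep, was lower in Dicer cKO/Control, and of 8 endothelial genes none was past the limits in either comparison with Control. The endothelial median log2 ratio was 0.14 in Dicer cKO/Control and -0.53 in ScxHt/Control. In ScxHt/Control all 8 endothelial ratios were below 1, from 0.601 for Tie1, just inside the limit, to 0.792 for Vwf. The 6 skeletal troponins had median log2 ratios of 0.63 in Dicer cKO/Control and -0.84 in ScxHt/Control. Genes common to all skeletal fibres had 0.68 and -0.93, with the fast troponins above and the slow troponins below both. The summed share of those genes, mostly Ttn reads, ran from 3.15% to 10.1% of counts. The part of muscle content, and of these other cell types, in the troponin differences was not tested.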

How the data were processed

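RNA-seq of 3 Achilles tendon libraries was used, 1 per genotype. The small RNA libraries of the series were not used here. The authors trimmed adaptors, aligned with TopHat and Bowtie2 against GRCm38, and deposited HTSeq counts per gene. The authors also deposited RPKM values for the same genes, which were used for levels between genes. Versions, annotation release and strand setting are not given in the sources used here. Of 54189 lines, 463 that repeated an earlier line were dropped before ratios and ranks were taken. Size factors and library totals, and so the percentages of counts, used all 54189 lines. Ratios used DESeq2 median-of-ratios size factors on the 2 libraries compared, with Clopper-Pearson 95% intervals, and fast-to-slow ratios used Wald log-odds intervals. Both cover counting error only and not the spread between mice, since each genotype has 1 library. They assume independent reads, so they are too narrow where reads are not independent molecules. DESeq2 and edgeR were used for scaling only, with no dispersion or p-value. The minimum mean of 50 and the limits of 1.67 and 0.60 follow the study's methods.

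The members and gene lists were chosen with earlier results of these data known. All 8 troponins were named. Of the lists, Acta1, Ttn, Ckm, Myh1, Myh2, Myh4, Myh7 and the thin filament genes with the highest and lowest Dicer cKO/Control ratio were named by rule, as were the 5 genes nearest to each skeletal type. Some genes stand on 2 lists: Acta1 and Neb (thin filament, all fibres), Actc1 (thin filament, developing muscle), Tpm3 (thin filament, slow fibre) and Myoz1 (all fibres, fast fibre). Other genes named from lists were chosen after their values were seen. Gene positions and exon bases came from the GENCODE annotation of GRCm38. Protein identity between troponins was not computed here. The result of 1 further marker list is not reported here. Alternatives were TMM factors, total counts, total counts without features above 1% of a library, size factors over 3 libraries, a pseudocount of 1, minimums of 0, 10 and 200, limits of 2 and 0.5, the whole interval past the limits, and shares of raw reads or of the fast and slow genes only. The code was tested on simulated data. Tools were R 4.3.3, DESeq2 1.42.0, edgeR 4.0.16, Python 3.11.15, numpy 2.4.6, pandas 2.3.3, scipy 1.17.1 and matplotlib 3.10.9.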

Additional observations from a re-analysis of the deposited data

How the results depend on the processing

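No ratio of the 6 skeletal troponins changed direction under another scaling or a pseudocount. Tnni3, under the minimum and not called, crossed 1 in Dicer cKO/ScxHt, from 0.996 to 1.006 with TMM factors and 1.001 with size factors over 3 libraries. With limits of 2 and 0.5, the count of troponins higher in Dicer cKO/Control fell from 3 to 2, since Tnni2 was at 1.80. With no minimum, the count lower in ScxHt/Control rose from 3 to 4. The count higher in Dicer cKO/ScxHt then rose from 6 to 7. The other counts of troponins past the limits did not change under any alternative. Scaling by total counts moved all ratios of a comparison by 1 factor, 1.05 in Dicer cKO/Control, 1.07 in ScxHt/Control and 0.957 in Dicer cKO/ScxHt, and put the median log2 ratio of the fast genes at 1.07, -0.044 and 1.12. TMM factors, size factors over 3 libraries, total counts without features above 1% of a library and a pseudocount of 1 moved no troponin ratio beyond its counting interval. Shares of raw reads, which do not divide out gene length, put the fast gene at 86.1% of troponin T in Control, 93.6% in ScxHt and 90.3% in Dicer cKO, at 69.0%, 81.7% and 76.2% of troponin I, and at 26.5%, 50.04% and 39.3% of troponin C, in the same order of libraries. No median could be given for the cardiac genes, which were both under the minimum. No paired analysis was possible because each genotype has 1 library. The depth limits statements on Tnnt2 and Tnni3, and with 1 mouse per genotype the spread between mice is unknown.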

Other observations

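Of 17 genes listed as regulators of fibre type, 2 were higher and none lower in Dicer cKO/Control, beside 3.87% and 4.18% of all genes, and none was higher and 3 were lower in ScxHt/Control, beside 3.03% and 4.71%. These are small numbers of calls. The genes named here were chosen after their values were seen. Ppargc1a, a coactivator of oxidative metabolism, had 540 reads in Control, 347 in ScxHt and 1160 in Dicer cKO, and Eya1, a transcriptional cofactor of fast fibres, had 93, 104 and 220. Their Dicer cKO/Control ratios were 2.23 and 2.46. The 3 genes lower in ScxHt/Control were Tead4, a factor that reads MCAT sites, at 0.399, Vgll2, a TEAD cofactor, at 0.417, and Esrrg, a nuclear receptor of oxidative fibres, at 0.441. Tead4 and Vgll2 rest on 62 and 50 reads in ScxHt.

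Of 5 genes of developing muscle above the minimum, 3 were higher in Dicer cKO/Control: the embryonic myosin Myh3 at 1.84, the perinatal myosin Myh8 at 1.95 and Actc1 at 5.49. In ScxHt/Control Myh3 was lower at 0.503, Myh8 was at 0.709, and Actc1 was higher at 4.26. The 4 fast fibre genes higher in ScxHt/Control were Myh4, Pvalb, a calcium buffer, at 3.22, Mybpc2, a fast myosin-binding protein, at 2.46, and Actn3, a Z-disc protein of fast fibres, at 1.79. All 4 were higher in ScxHt than in Control while the fast troponins were not.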
